A study of Rattus norvegicus with 6 samples.

Results

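The genes of the mitochondrial respiratory chain and ATP synthase were followed in pancreas from 6 Sprague-Dawley rats. Members were chosen by gene symbol alone. Symbols beginning with Mt-nd, Mt-co or Mt-atp gave the mitochondrially encoded class. The Nduf subunit, Sdh, Uqcr, Cox4 to Cox8 and Atp5 symbols gave the nuclear encoded class. Of 101 rows that matched, 91 had a mean TPM of 1 or more over the 6 libraries, 12 mitochondrially encoded and 79 nuclear encoded. They are 91 of 11477 genes at that level and of 34001 in the table. TPM, a length-scaled transcript abundance, divides each gene's reads by its length and scales every library to the same total, so levels can be compared between genes and carry no sequencing depth, which is unknown.

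The respiratory chain passes electrons from NADH and succinate to oxygen through complexes I to IV, pumping protons across the inner mitochondrial membrane, and ATP synthase (complex V) uses the gradient to make ATP. Complexes I, III, IV and V combine subunits made from the small circular mitochondrial genome, transcribed within the organelle, with subunits encoded in the nucleus and imported. Complex II is built from nuclear encoded subunits alone. Acinar cells of the pancreas spend much ATP on making and secreting digestive enzymes, and mitochondrial injury in these cells is a known feature of pancreatitis.

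Each group held 2 rats, and all tissue was taken 24 h after the operation. Control rats had their abdomen opened and the gland moved with swabs, then 1 ml of saline in a tail vein. In the TP group, for traumatic pancreatitis, an impactor of 3 cm2 pressed the gland with 10 kg, and 1 ml of saline followed. The TP+hucMSC-Exs group, called exosome-treated below, had the same crush. It was then given exosomes, vesicles shed by cells and here prepared from human umbilical cord mesenchymal stem cells. The dose was 10 μg for each 100 g of rat, into a tail vein. No group received exosomes without injury, so the agent was seen only in crushed tissue. Age was not stated in the sources used here.

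The tissue label held in every library by its acinar markers, but TP replicate 2 stood apart. The listed digestive enzymes took 78.6% and 75.3% of TPM in the controls, 71.1% and 19.2% in TP replicates 1 and 2, with 62.1% and 56.9% under exosome treatment. Adipoq, made by fat cells, stood at 741 TPM in TP replicate 2 and at 1.42 or less elsewhere. The 12 listed adipocyte markers summed to 7342 TPM in that library and to 28.4 to 65.2 TPM in the others. Its 11 macrophage markers summed to 5408 TPM, against 11.97 to 137 in the controls, 49.8 in TP replicate 1, and 468 to 877 under exosome treatment. Across genes, which are not independent replicates, the log2 values of the TP replicates correlated at 0.71, those of the controls at 0.94 and those of the exosome-treated libraries at 0.97. Every statement on the TP group below is therefore also given by library.

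Mitochondrially encoded transcripts made up 0.549% and 0.853% of TPM in the controls, a mean of 0.701% ± 0.215 (SD, n = 2). They made up 0.709% and 4.29% in the TP replicates, with 0.783% and 0.728% under exosome treatment, a mean of 0.756% ± 0.0391 (SD, n = 2). TP replicate 2 was the high one, and the other 5 libraries overlapped between groups. Nuclear encoded transcripts made up 0.294% and 0.349% of TPM in the controls, a mean of 0.321% ± 0.0392 (SD, n = 2). They made up 0.388% and 2.28% in the TP replicates, with 0.514% and 0.597% under exosome treatment, a mean of 0.556% ± 0.0587 (SD, n = 2). Here each group of crushed tissue lay above both controls. With 2 libraries against 2, a two-sided exact permutation test cannot give a p below 0.333, so these shares could not pass 0.05.

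Since the enzymes take most of the TPM, the shares were also taken of the TPM outside the listed enzymes. On that base the nuclear encoded share stood at 1.37% and 1.41% in the controls, at 1.34% in TP replicate 1, with 1.36% and 1.39% under exosome treatment. Only TP replicate 2 left this narrow band, at 2.83%. The mitochondrially encoded share on the same base stood at 2.56% and 3.46% in the controls, then 2.45% and 5.32% in the TP replicates, with 2.07% and 1.69% under exosome treatment. Both exosome-treated libraries were thus below the other 4 for the mitochondrially encoded class and within the range of the controls and TP replicate 1 for the nuclear encoded class. In bulk tissue, fewer cells of a type and less RNA per cell cannot be told apart.

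**Figure D1:**
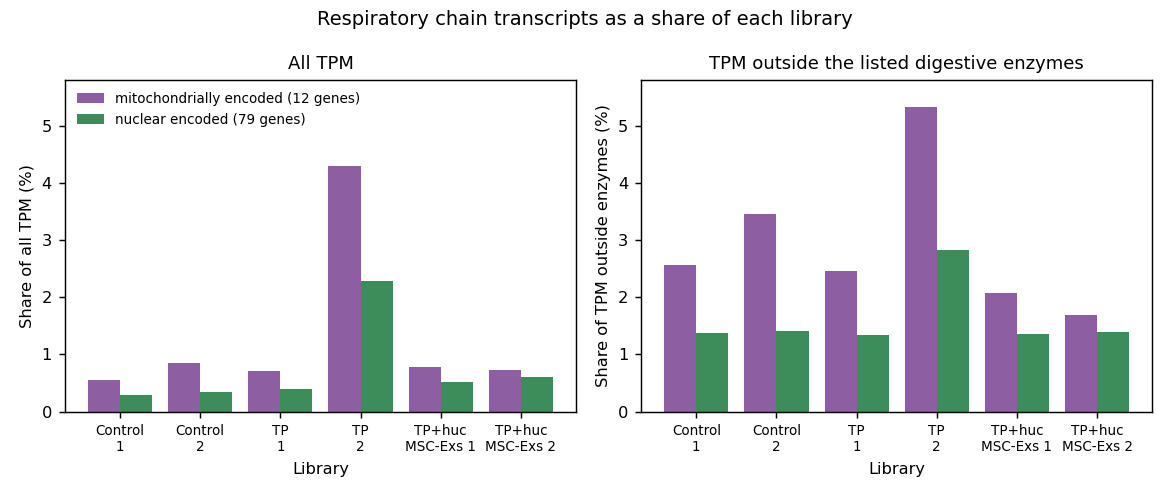
Bars give the summed share of TPM (%) in each of the 6 libraries for the 12 mitochondrially encoded (purple) and 79 nuclear encoded (green) members, of all TPM on the left and of TPM outside the listed digestive enzymes on the right. On the right the green bars lie between 1.34% and 1.41% in every library but TP replicate 2, at 2.83%, and the purple bars are lowest in the exosome-treated libraries, at 2.07% and 1.69%.

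The ratio of the summed mitochondrially encoded to the summed nuclear encoded TPM is taken within a library and does not depend on how libraries are scaled. It was 1.87 and 2.44 in the controls (mean 2.16 ± 0.406, SD, n = 2), 1.83 and 1.88 in the TP replicates (1.85 ± 0.0383), with 1.52 and 1.22 under exosome treatment (1.37 ± 0.215). Both exosome-treated libraries were lower than the other 4. TP replicate 2, so different in level, had nearly the ratio of TP replicate 1. On the log2 scale the mean ratio of the TP+hucMSC-Exs group lay 0.65 below the controls, and 0.46 below without control replicate 2. It lay 0.44 below the TP group, while the TP group lay 0.21 below the controls and 0.01 below without control replicate 2. For the TP+hucMSC-Exs group the groups did not overlap in either comparison, and the smallest exact two-sided permutation p is again 0.333.

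The same order held within complexes I and IV and less clearly within complex V. For complex IV, cytochrome c oxidase, the ratio was 3.39 and 3.86 in the controls, then 3.41 and 2.88 in the TP replicates, with 2.39 and 2.05 under exosome treatment. For complex I, NADH dehydrogenase, it was 1.21 and 1.74, then 1.16 and 1.74, then 0.950 and 0.833. In both complexes the exosome-treated libraries did not overlap with any other. For complex V the TP+hucMSC-Exs values of 1.86 and 1.34 lay below the controls, at 2.05 and 2.86, but the higher one nearly met the TP values of 1.89 and 1.87. In each of the 3 complexes the summed mitochondrially encoded TPM of the exosome-treated libraries lay within the range of the controls, while each nuclear encoded sum was above both controls as deposited. Of all genes, 86.9% were above both controls in these libraries as deposited. After median-of-ratios scaling 12 of 12 mitochondrially encoded and 61 of 79 nuclear encoded members were lower. Which class moved against the controls thus depended on the scaling. For complex IV the mitochondrially encoded sum was 2350 and 3212 TPM in the controls and 3210 and 3178 TPM in the exosome-treated libraries. The nuclear encoded complex IV sum was 694 and 833 TPM in the controls and 1341 and 1550 TPM in the exosome-treated libraries.

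**Figure D2:**
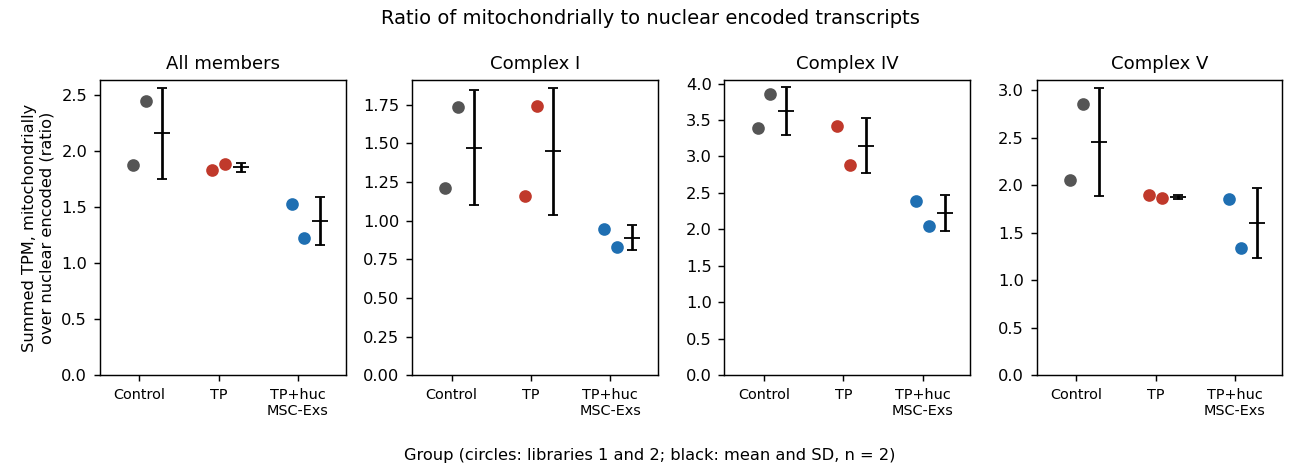
Each circle is 1 library's ratio of summed mitochondrially encoded to summed nuclear encoded TPM, for all members and for complexes I, IV and V, with the group mean and SD (n = 2) in black. In each panel the exosome-treated libraries are below the other 4, at 1.52 and 1.22 for all members. For complex V the gap is narrow, with the higher exosome-treated library at 1.860 and TP replicate 2 at 1.866.

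No member passed the test in any comparison. The test was limma on log2(TPM + 0.5), fitted over all 11477 genes and the 6 libraries, with Benjamini-Hochberg adjustment and a threshold of 0.05. For TP against control, 0 of 91 members passed, beside 0.0523% of all genes. For TP+hucMSC-Exs against TP, 0 of 91 passed, beside 0.0697%. The count was again 0 of 91 for TP+hucMSC-Exs against control, beside 0.209%. At an unadjusted limma p under 0.05 the members numbered 0 of 91 in each comparison, beside 4.06%, 1.32% and 2.95% of all genes. The 3 comparisons share libraries, so their values are given side by side and were not correlated.

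The TP libraries set much of the spread in that fit. When only the controls and the exosome-treated libraries were fitted, an alternative chosen after the data were seen, limma called 51 of 91 members as higher, all of them nuclear encoded, and 0 of 12 mitochondrially encoded members. The same fit called 52.3% of all genes as higher and 0.505% as lower, so 51 of 91 members is a share near the background. With median-of-ratios scaling, which sets the typical gene equal between libraries, the same 2 groups gave 0 of 91 members, beside 1.41% of all genes higher and 0.235% lower. At an unadjusted limma p under 0.05, 38 members passed in that fit. Of these, 12 of 12 mitochondrially encoded and 25 of 79 nuclear encoded members were lower, beside 10.3% of all genes, and 1 nuclear encoded member was higher, beside 16%. These are not calls, and all except 1 lay in the direction opposite to the 51. The result also turned on which TP library was kept. Without TP replicate 1, limma called 90 of 91 members in TP against control, beside 93.3% of all genes, and 90 in TP+hucMSC-Exs against TP, beside 83.1%. The same fit called 50 of 91 in TP+hucMSC-Exs against control, beside 52.5%. Without TP replicate 2 it called 0 of 91 in both, beside 0.174% and 1.91%, and 51 of 91 in TP+hucMSC-Exs against control, beside 52.4%. These fits assume that a lone TP library varies like the other groups.

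As deposited, the median member change for TP+hucMSC-Exs against control was 0.08 (log2) for the mitochondrially encoded class and 0.82 for the nuclear encoded class, beside 1.09 for all genes tested. Both classes therefore lay below the median gene, by 1.01 and 0.28. Median-of-ratios scaling moved the median of all genes to 0.02, and turned the class medians to -1.37 and -0.60. Rescaling without the enzymes gave -0.73 and 0.03, beside 0.60 for all genes. The order of the classes was the same in these settings, but the direction of the nuclear encoded class depended on the scaling.

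For TP against control the class medians were 1.44 and 1.61 as deposited, beside 1.495 for all genes. They rested on TP replicate 2, and without it they were 0.14 and 0.31, beside 0.00 for all genes. With median-of-ratios scaling and both TP libraries they were -0.29 and -0.09, beside 0.03. The medians of TP+hucMSC-Exs against TP were -1.38 and -0.74, beside -0.38 for all genes, and without TP replicate 2 they were -0.02 and 0.50, beside 1.10. With median-of-ratios scaling they were -1.09 and -0.45, beside -0.01.

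Counted by library as deposited, 75 of 79 nuclear encoded members were higher in both exosome-treated libraries than in both controls, beside 86.9% of all genes. Of the 12 mitochondrially encoded members, 1, Mt-nd2, was higher, and 2, Mt-nd4 and Mt-nd6, were lower, beside 1.63% of all genes lower. After median-of-ratios scaling 12 of 12 mitochondrially encoded and 61 of 79 nuclear encoded members were lower, beside 27.4% of all genes, and 1 member was higher, beside 32.1%. For TP against control 57 of 79 nuclear encoded members and 4 of 12 mitochondrially encoded members were higher in both TP libraries, beside 23.1% of all genes. After median-of-ratios scaling 4 of 79 and 0 of 12 were higher, beside 18.3%, and 1 of 79 and 2 of 12 were lower, beside 12.2%, so the count as deposited did not hold under that scaling. As deposited, the small excesses of TP replicate 1 count here as much as the large ones of TP replicate 2. Relative to the control mean the median nuclear member stood at 1.23 in TP replicate 1 and 7.71 in TP replicate 2, and the median mitochondrially encoded member at 1.09 and 6.76. Against the TP group, 5 of 12 mitochondrially encoded members and 1 of 79 nuclear encoded members were lower in both exosome-treated libraries, beside 1.62% of all genes. After median-of-ratios scaling 11 of 12 and 40 of 79 were lower, beside 17.4%.

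**Figure D3:**
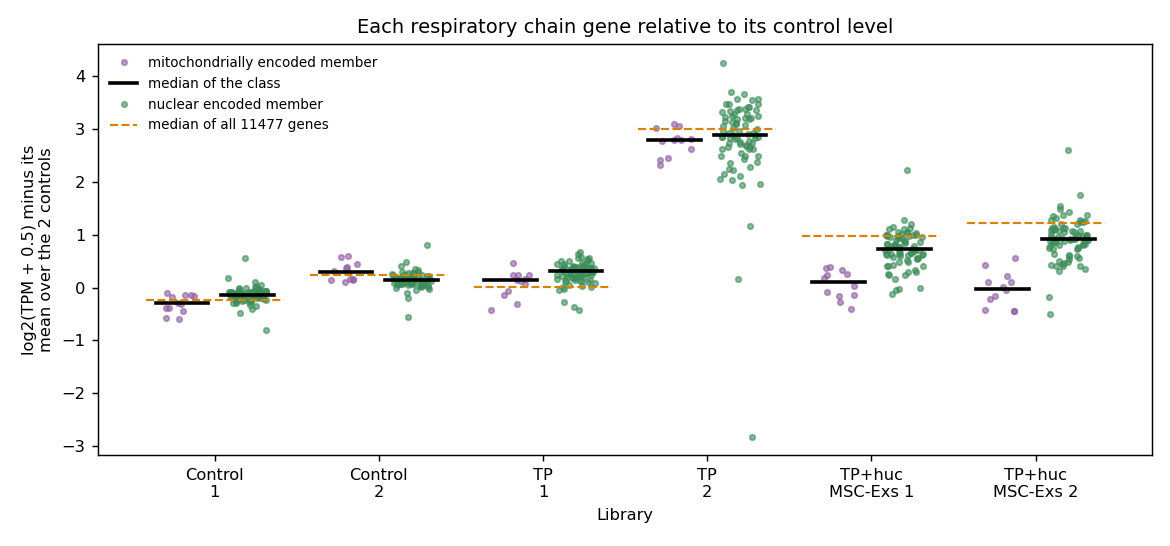
Each point is 1 member in 1 library, as log2(TPM + 0.5) minus its mean over both controls, with black bars at class medians and dashed lines at the median of all 11477 genes, TPM as deposited. In the exosome-treated libraries the mitochondrially encoded medians are 0.10 and -0.02 and the nuclear encoded medians 0.73 and 0.93, under all-gene medians of 0.97 and 1.22; with median-of-ratios scaling the nuclear encoded class median against control turns to -0.60.

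Nuclear genes of the respiratory chain are known to share promoter elements for the factors NRF1, GABP and YY1. RefSeq promoters of the GRCr8 assembly, from 250 bases before to 50 after the annotated start, were at hand for 67 of the 77 distinct nuclear encoded names. The NRF1 motif GCGCANGCG was found, on either strand, in 17 of 67 (25.4%) and in 5.8% of all 33469 promoters of that length. The GABP motif CCGGAAGT was found in 8 (11.9%), against 3.81% of all. The YY1 motif AANATGGCG was found in 16 (23.9%), against 3.01% of all. The NRF1 and YY1 motifs can overlap at their GCG letters, and each was counted. At least 1 of the 3 was found in 37 of the 67 (55.2%), against 11.3% of all promoters. Median GC content was 56% in the member promoters and 51.7% in all, and its part in these shares was not tested. A match is a description of the letters, not a bound site.

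The 120 bases before the annotated start are printed for 4 members, chosen to show each motif and the member of largest change, Atp5if1, in whose 300 bases none of the 3 was found. Capitals mark the motifs. Atp5mc2, a gene for the ring subunit c of ATP synthase, carries NRF1 letters (chr7:135678219-135678338, minus strand).
Atp5mc2: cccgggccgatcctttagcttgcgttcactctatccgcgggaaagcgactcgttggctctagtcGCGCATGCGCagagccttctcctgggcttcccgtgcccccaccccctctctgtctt
Uqcrq, a small subunit of complex III, carries GABP letters (chr10:38089979-38090098, minus strand).
Uqcrq: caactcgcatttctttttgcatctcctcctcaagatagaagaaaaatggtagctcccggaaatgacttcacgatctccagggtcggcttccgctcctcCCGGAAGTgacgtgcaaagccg
Ndufa13, a complex I subunit, carries YY1 letters and then GABP letters (chr16:19560406-19560525, plus strand).
Ndufa13: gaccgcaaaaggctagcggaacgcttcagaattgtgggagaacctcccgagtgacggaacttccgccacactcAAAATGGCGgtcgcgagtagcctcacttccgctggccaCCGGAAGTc
Atp5if1, the inhibitor of ATP hydrolysis by ATP synthase, has none of the 3 (chr5:150026678-150026797, minus strand).
Atp5if1: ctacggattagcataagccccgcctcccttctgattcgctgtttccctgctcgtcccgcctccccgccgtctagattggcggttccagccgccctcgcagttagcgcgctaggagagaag

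Atp5mc2 and Atp5if1 are described with complex V. Ndufa13 stood at 55.6 and 56.1 TPM in the controls, then 72.5 and 379 TPM in the TP replicates, with 91.8 and 107 TPM under exosome treatment. Uqcrq stood at 142 and 151 TPM, then 168 and 900.5 TPM, then 173 and 222 TPM. In both genes each injured group lay above the controls without overlap as deposited. Of all genes, 23.1% did so in the TP group and 86.9% in the TP+hucMSC-Exs group.

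In complex I, which takes electrons from NADH, the 37 nuclear encoded members had a median TP+hucMSC-Exs over control ratio of mean TPM of 1.74, from 0.769 to 2.65. Ndufa3 and Ndufb4, accessory subunits, had the highest mean TPM of these. Ndufa3 stood at 77.2 and 66.7 TPM in the controls, then 104 and 352 TPM in the TP replicates, with 111 and 102 TPM under exosome treatment. Ndufb4 stood at 70.8 and 83.7, then 99.6 and 302, then 119 and 136 TPM. Both genes were above the controls in all 4 libraries of crushed tissue, with limma log2 changes of 0.56 ± 1.24 and 0.72 ± 1.23 (SE) for TP+hucMSC-Exs against control, adjusted p = 0.806 and 0.8. As deposited, 23.1% of all genes were above both controls in both TP libraries and 86.9% in both exosome-treated libraries. After median-of-ratios scaling, 4 and 1 of the 79 nuclear encoded members were.

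Ndufa1, a small membrane subunit needed to assemble complex I, had the lowest ratio of the complex. It stood at 20.4 and 9.18 TPM in the controls, then 21.6 and 1.51 TPM in the TP replicates, with 13.2 and 9.52 TPM under exosome treatment. The library with the highest level of nearly all other members thus had the lowest level of Ndufa1, and the groups overlapped. Its limma log2 change for TP against control was -1.09 ± 1.42 (SE; adjusted p = 0.568), and 0.64 without TP replicate 2. The table gives this gene a length of 213 bases, so its TPM rests on a short stretch. A pair of rows carry the name Ndufv3, a subunit of the NADH-binding arm. The longer row, of 1562 bases, stood at 28.7 and 32.0, then 44.8 and 128, then 55.7 and 63.4 TPM. The shorter row, of 327 bases, stood at 16.8 and 22.1, then 23.0 and 21.5, then 26.2 and 26.9 TPM. Only the longer row was high in TP replicate 2, and no source used here says how reads were shared between the rows.

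Complex II, succinate dehydrogenase, links the chain to the tricarboxylic acid cycle. Its 4 members had the highest median ratio of the complexes as deposited, 2.28, from 1.61 to 2.93. The median log2 change of all genes on that scale was 1.09. Sdhb, the iron-sulfur subunit, stood at 12.5 and 16.8 TPM in the controls, then 15.9 and 156 TPM in the TP replicates, with 35.7 and 50.02 TPM under exosome treatment. Both exosome-treated libraries were above both controls and above TP replicate 1. Its limma log2 change for TP+hucMSC-Exs against control was 1.51 ± 1.36 (SE; adjusted p = 0.8), and adjusted p = 0.0187 when only these groups were fitted. With only these groups and median-of-ratios scaling the change was 0.09 (adjusted p = 0.808). Sdhc, a membrane anchor, stood at 12.2 and 15.2, then 16.3 and 165, then 28.3 and 35.6 TPM. Sdha, the flavoprotein that oxidises succinate, stood at 11.4 and 14.5, then 12.9 and 129, then 20.1 and 21.6 TPM. It had the lowest ratio of the 4.

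Complex III passes electrons from ubiquinol to cytochrome c. Its 9 nuclear encoded members had a median ratio of 1.86, from 1.35 to 2.38. Uqcrq, given above, had the lowest of these ratios and the highest mean TPM. Uqcrc1, a core subunit, had the highest, and stood at 16.3 and 23.0, then 23.1 and 203, then 42.8 and 50.9 TPM. Uqcr11, a small subunit, stood at 53.3 and 59.0, then 69.3 and 525, then 88.2 and 109 TPM. All 3 genes were above both controls in both exosome-treated libraries, beside 86.9% of all genes as deposited. The mitochondrially encoded subunit, cytochrome b, is spelled Mt-cyb in the table and was no member. It stood at 335 and 751, then 482 and 2893, then 666 and 617 TPM, within the control range in the exosome-treated libraries.

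Complex IV hands electrons to oxygen. Its 13 nuclear encoded members had a median ratio of 1.78, from 0.933 to 2.45. Cox4i1, the widely expressed form of subunit 4, stood at 144 and 177 TPM in the controls, then 191 and 1143 TPM in the TP replicates, with 261 and 305 TPM under exosome treatment. Cox6a1, the widely expressed form of subunit 6a, stood at 93.6 and 115, then 124 and 1325, then 229.8 and 281 TPM. Both genes were above both controls in the 4 libraries of crushed tissue as deposited. Of all genes, 23.1% were above both controls in both TP libraries and 86.9% in both exosome-treated libraries. Cox6a1 had the highest ratio of the complex, 2.45. Its limma log2 change was 1.29 ± 1.16 (SE; adjusted p = 0.8) for TP+hucMSC-Exs against control, and -0.16 with median-of-ratios scaling.

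The subunit forms known from other tissues were low or listed at 0. Cox6a2, Cox7a1 and Cox8b, forms of heart and skeletal muscle or brown fat, had mean TPM of 0.525, 0.0167 and 0. Cox8c and Cox7b2 were listed at 0 in every library. Cox4i2, Cox6b2 and Ndufa4l2 passed the minimum narrowly, with means of 1.48, 1.38 and 1.48. These means rest on TP replicate 2, at 4.80, 6.12 and 5.85 TPM, against at most 1.2, 1.04 and 1.12 TPM in the other libraries. In all, 10 matched rows stayed under the minimum, 7 of them at 0 in every library, and Ndufs6 at a mean of 0.0533 TPM was among the other 3. An exact 0 in a table without counts can be a failed estimate. Atp5md, a subunit of ATP synthase in every cell, was listed at 0 in every library, and Echs1, an enzyme of fatty acid oxidation, at 17.97 and 0 TPM in the exosome-treated libraries. Markers of the other tissues were also highest in TP replicate 2. The 6 brown adipocyte markers summed to 12.82 TPM there, of which Cidea gave 12.29, and to 0.03 to 0.5 TPM elsewhere, with Ucp1 and Cox8b listed at 0 in every library. The 10 skeletal and cardiac muscle markers summed to 12.1 TPM there and to 0.59 to 2.38 TPM elsewhere. The 6 smooth muscle markers summed to 943 TPM there and to 9.56 to 38.4 TPM elsewhere. The part of these cells in the isoform values was not tested.

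ATP synthase, complex V, had 16 nuclear encoded members with a median ratio of 1.72, from 0.940 to 5.45. The highest ratio was that of Atp5if1, which binds the enzyme and blocks ATP hydrolysis when the proton gradient fails. It stood at 9.47 and 14.5 TPM in the controls, then 13.6 and 233 TPM in the TP replicates, with 56.5 and 74.3 TPM under exosome treatment. TP replicate 1 lay between the controls, and both exosome-treated libraries lay above them. The limma log2 change for TP+hucMSC-Exs against control was 2.42 ± 1.35 (SE; adjusted p = 0.8), the largest of the 91. With only these groups fitted its adjusted p was 0.0125, and with median-of-ratios scaling as well the change was 1.00 (adjusted p = 0.069). For TP against control it was 2.23 ± 1.35 (SE; adjusted p = 0.555) in limma, and 0.21 without TP replicate 2.

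Subunits of the catalytic core and the rotor had lower ratios. Atp5f1b, the catalytic beta subunit, stood at 76.3 and 97.3, then 96.3 and 839, then 159 and 183 TPM. Atp5f1e, the epsilon subunit of the rotor, had the highest mean TPM of the nuclear class, and stood at 258 and 321, then 312 and 1269.5, then 352 and 447 TPM. TP replicate 1 lay between the controls for both genes. The exosome-treated libraries were above both controls, beside 86.9% of all genes as deposited, with ratios of 1.97 and 1.38.

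Subunit c, which forms the proton-driven ring, is made from 3 genes whose mature proteins are the same. Atp5mc1 stood at 91.7 and 99.3 TPM in the controls, then 78.5 and 214 TPM in the TP replicates, with 95.1 and 84.5 TPM under exosome treatment. Atp5mc2 stood at 94.1 and 109.8, then 111 and 669, then 197 and 239.98 TPM. Atp5mc3 stood at 36.9 and 45.1, then 45.3 and 492, then 80.3 and 89.9 TPM. In the exosome-treated libraries Atp5mc2 and Atp5mc3 were above both controls as deposited, beside 86.9% of all genes, with ratios of 2.14 and 2.08. Atp5mc1 was not, with a ratio of 0.940. The difference between these genes was not tested.

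**Figure D4:**
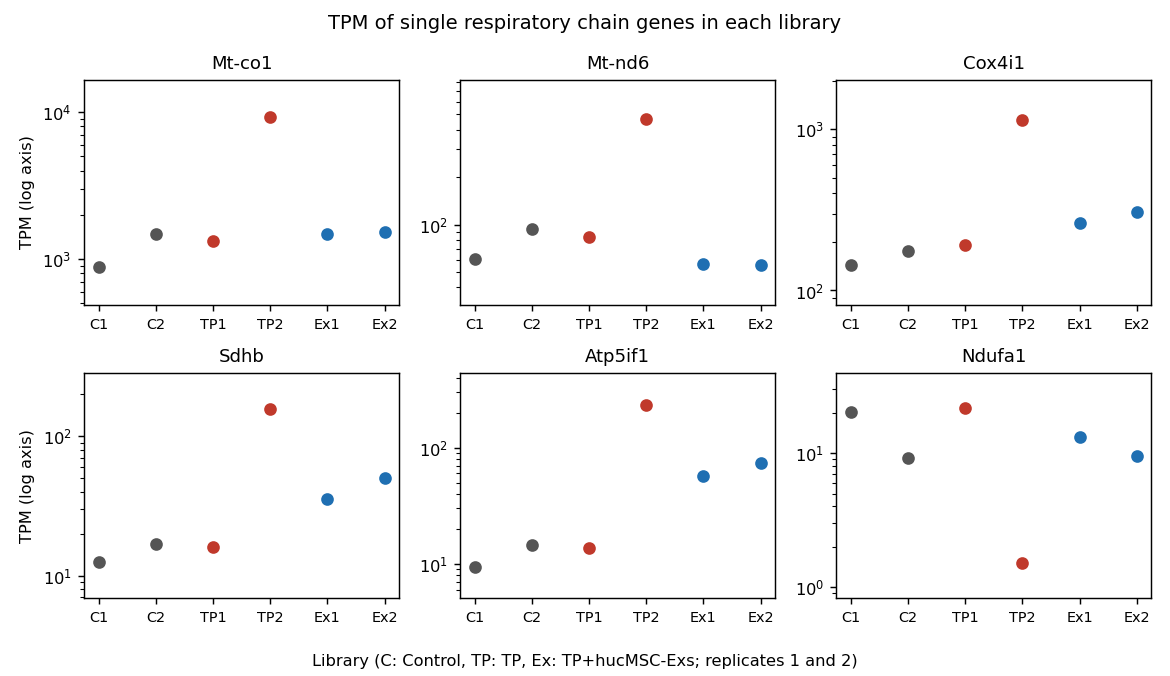
TPM on a log axis for 6 members in each library: C, control; TP, crushed; Ex, TP+hucMSC-Exs. TP replicate 2 is the highest point for 5 of the genes and the lowest, at 1.51 TPM, for Ndufa1. As deposited, Cox4i1, Sdhb and Atp5if1 are above both controls and TP replicate 1 in both exosome-treated libraries. Of all genes, 86.9% are above both controls in these libraries.

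The mitochondrially encoded members are cut from long transcripts of the circular genome, and most had higher TPM than any nuclear encoded member. Mt-atp8, an ATP synthase subunit, had the highest mean TPM, and stood at 1399 and 2617 TPM in the controls, then 1534 and 9589.6 TPM in the TP replicates, with 2275 and 1858 TPM under exosome treatment. It overlaps Mt-atp6 in 1 transcript, as Mt-nd4l does with Mt-nd4, and no source used here says how reads were split within these pairs. Mt-co1, the catalytic subunit of complex IV, stood at 879.9 and 1487, then 1339.6 and 9233, then 1479.7 and 1529 TPM. Mt-co2, which receives electrons from cytochrome c, stood at 589 and 718, then 896 and 4533, then 661 and 704 TPM. In these 3 genes TP replicate 2 was high, and the exosome-treated libraries met or nearly met the control range.

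The complex I members of the mitochondrial genome did not all stand alike. Mt-nd1 stood at 236 and 527 TPM in the controls, then 339 and 3035 TPM in the TP replicates, with 461 and 517 TPM under exosome treatment. Mt-nd4 stood at 99.6 and 121, then 130.1 and 749, then 91.0 and 80.2 TPM. Mt-nd6, encoded on the opposite strand from the others, stood at 60.8 and 94.0, then 83.0 and 466, then 56.6 and 55.1 TPM. For Mt-nd4 and Mt-nd6 both exosome-treated libraries were below both controls, and for Mt-nd1 they lay within the control range. The limma log2 changes for TP+hucMSC-Exs against control were 0.47 ± 1.04 (SE; adjusted p = 0.807) for Mt-nd1, -0.36 ± 1.21 (adjusted p = 0.852) for Mt-nd4 and -0.43 ± 1.26 (adjusted p = 0.834) for Mt-nd6. With median-of-ratios scaling the change of Mt-nd1 was -0.98.

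Placed in genome order, the TP+hucMSC-Exs over control ratios of mean TPM were 1.28 for Mt-nd1, 1.201 for Mt-nd2 and 1.27 for Mt-co1. They were 1.04, 1.03, 1.10 and 1.07 for Mt-co2, Mt-atp8, Mt-atp6 and Mt-co3. They were 0.916, 0.796, 0.778, 0.805 and 0.722 for Mt-nd3, Mt-nd4l, Mt-nd4, Mt-nd5 and Mt-nd6, and 1.18 for the non-member Mt-cyb. The first 7 in order were above 1 and the next 5 below 1. Over these genes control replicate 1 ran from 0.603 to 0.933 of the control mean and control replicate 2 from 1.07 to 1.40. Values of 2 controls over their own mean mirror each other, so they do not measure the spread of the ratios along the genome. The order was not tested. Mt-nd6 made up 5.69% and 5.51% of the mitochondrially encoded complex I TPM in the controls, then 6.06% and 4.62% in the TP replicates, with 4.06% and 4.02% under exosome treatment, which were the lowest.

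**Figure D5:**
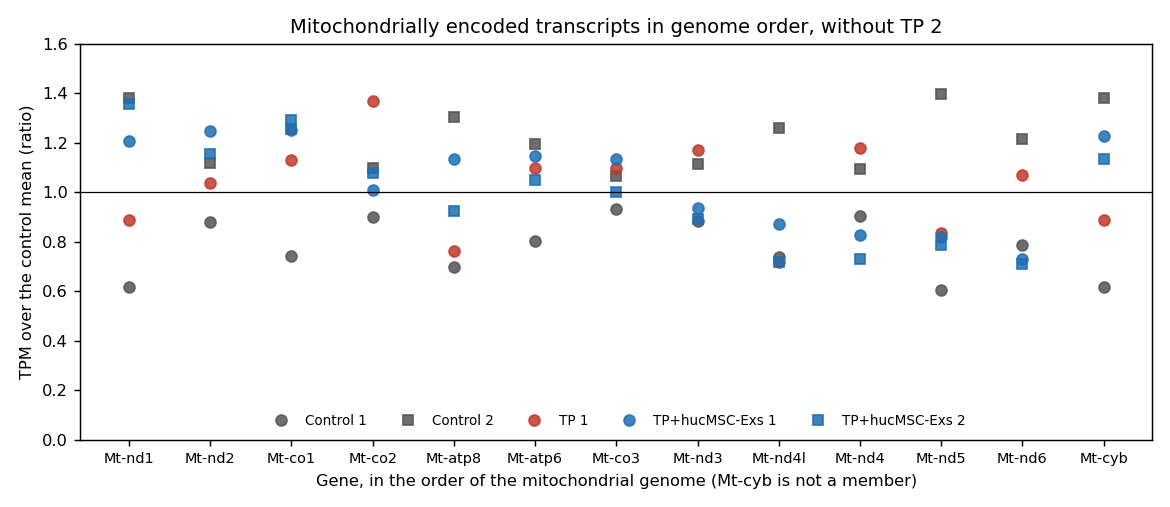
TPM over the control mean for each mitochondrially encoded gene, in genome order, in 5 libraries, with TP replicate 2 left out because its ratios run from 4.78 to 8.30. The blue TP+hucMSC-Exs points lie below both grey control points for Mt-nd4 and Mt-nd6 and above both for Mt-nd2. Elsewhere they lie among the controls or close to them.

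The TP+hucMSC-Exs over control ratios of the classes overlapped little. Those of the 12 mitochondrially encoded members ran from 0.722 to 1.28, with 7 above 1. Those of the nuclear encoded members ran from 0.769 to 5.45, with 76 of 79 above 1 and 25 above 2. The shares of all genes above these ratios were not counted. As deposited, the median log2 change was 1.09 for all genes, 0.82 for the nuclear and 0.08 for the mitochondrially encoded class. Of all genes, 86.9% were above both controls in both exosome-treated libraries. In all, 72 of 79 nuclear encoded members exceeded the highest mitochondrially encoded ratio. The 7 that did not were Atp5mc1, Cox4i2, Cox6b2, Cox7b, Ndufa1, Ndufa4 and Ndufb2. These are ratios of mean TPM as deposited. A scaling that differs between the libraries of a group moves them by a factor that differs between genes. These counts were not repeated under another scaling.

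Other lists of mitochondrial genes had medians near that of all genes as deposited, and no gene of these lists passed limma's test in any comparison. At an unadjusted limma p under 0.05 they numbered 1, 2 and 1 in the 3 comparisons, in the order used above. Between TP+hucMSC-Exs and control the median log2 change as deposited was 0.98 over 17 genes of the tricarboxylic acid cycle and 0.97 over 19 genes of mitochondrial transcription and biogenesis. It was 0.84 over 38 assembly factors and 1.01 over 29 mitochondrial ribosomal proteins. It was 1.22 over 21 genes of carriers, cytochrome c and the outer membrane, and 1.22 over 14 genes of fatty acid oxidation, beside 1.09 for all genes. Median-of-ratios scaling gave counts, in the same order of lists, of genes not overlapping the controls. Lower were 12 of 17, 6 of 19, 20 of 38, 15 of 29, 6 of 21 and 4 of 14. Of the nuclear encoded members 61 of 79 were lower, beside 27.4% of all genes. Higher were 0, 5, 4, 2, 4 and 6, with 1 of 79 nuclear encoded members, beside 32.1% of all genes. Tfam, which packages and transcribes mitochondrial DNA, stood at 2.61 and 3.45 TPM in the controls, then 2.43 and 24.2 TPM in the TP replicates, with 7.65 and 9.38 TPM under exosome treatment. As deposited it was above both controls in the exosome-treated libraries. So were 17 of the 19 genes of its list, beside 86.9% of all genes. Ppargc1a, a coactivator of mitochondrial biogenesis, stood at 0.22 TPM or less in every library. Of the most abundant genes of these lists, Mdh2, a dehydrogenase of the cycle, stood at 20.3 and 25.8, then 29.2 and 241, then 43.2 and 46.7 TPM. Slc25a5, an ADP/ATP carrier, stood at 71.5 and 95.4, then 85.7 and 537, then 105 and 125 TPM.

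Markers of other cells also differed between the groups compared. The summed 8 duct markers stood at 70.2 and 76.0 TPM in the controls, then 102 and 73.9 TPM in the TP replicates, with 783 and 994 TPM under exosome treatment. Most of the exosome-treated sums came from the keratins Krt8, at 412 and 519 TPM, and Krt18, at 209 and 255 TPM. Sox9 and Cftr stood at 0.82 TPM or less in every library. Each listed gene was above both controls in both exosome-treated libraries as deposited, beside 86.9% of all genes. The number of duct cells was not measured. The summed macrophage markers and the share of enzymes, given above, also set the exosome-treated libraries apart from the controls. The summed adipocyte markers of the exosome-treated libraries, 49.7 and 65.2 TPM, were close to the controls, at 29.6 and 58.3 TPM. The part of cell makeup in the lower mitochondrially to nuclear encoded ratio of the exosome-treated libraries was not tested. TP replicate 2, with the most adipocyte, fibroblast and macrophage markers, had a ratio of 1.88, and TP replicate 1 had 1.83. That is 1 library, whose duct marker sum and enzyme share were unlike those of the exosome-treated libraries. The part of cell makeup in its ratio was not tested either. RNA quality of the libraries is not given in the sources used here.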

How the data were processed

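Pancreas RNA from 6 rats, 2 per group and separate animals per the series text, was analysed from the table of gene TPM deposited by the authors, in which each library sums to 1000000 TPM. Libraries were made from total RNA with a SMARTer kit, per the labels' protocols. No source used here gives the aligner or quantifier. The builds in the submitters' processing notes are of mouse (GRCm38, mm10). Of the gene identifiers, 32883 are rat Ensembl and 1118 are MSTRG. The annotation behind them is unsettled, and the table served for symbols and lengths only. The TP columns carry a number no label explains and were matched by group name and replicate number. The group-mean columns equal the means of their libraries and were not used. TPM holds no depth, so no counting error can be given.

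The 11477 genes whose TPM averaged 1 or more were kept, and log2(TPM + 0.5) entered limma 3.58.1 (R 4.3.3) over all 6 libraries, with a variance trend and 3 residual degrees of freedom. The prior degrees of freedom were infinite. Benjamini-Hochberg adjusted p-values were held against 0.05. Log2 changes on this scale understate the change of low genes. Members were assigned to a complex by the start of their symbol alone. Every Nduf gene, Ndufa4 and Ndufa4l2 among them, was thus counted in complex I. Class sums and ratios were computed on TPM with pandas 2.3.3. Promoters are RefSeq's, of GRCr8, matched by symbol, and no coordinate of it was set against the table.

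The members, gene lists, design and most alternatives were chosen with earlier results of these data known. Named genes were all mitochondrially encoded members, the 2 of highest mean TPM per nuclear complex, isoforms and their counterparts, and per comparison the 3 nuclear members of smallest p and the largest and smallest change. To these were added Atp5mc2, Atp5mc3, Ndufa13, Uqcrc1, Sdha and both Ndufv3 rows, chosen after their values were seen. Alternatives were other pseudocounts (0.1 and 1), a minimum mean TPM of 5 or none, no variance trend, rescaling without enzymes, median-of-ratios scaling, the replicate block, leaving out each library, and fits of only the groups compared.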

Additional observations from a re-analysis of the deposited data

How the results depend on the processing

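The count of members called by limma was 0 in each comparison under the other pseudocounts, filters, the fit without a variance trend and both other scalings of all 6 libraries. Of these settings, the minimum mean TPM of 5 tested 88 members and the others 91. Leaving out 1 library each gave 0 to 90 members for TP against control, 0 to 90 for TP+hucMSC-Exs against TP and 0 to 51 for TP+hucMSC-Exs against control. The 90 came without TP replicate 1, where 93.3% and 83.1% of all genes were called. The third comparison gave 50 without TP replicate 1, where 52.5% of all genes were called, and 51 without TP replicate 2, where 52.4% were. Fitting only the groups compared, chosen after the data were seen, gave 51 for it. These fits leave out the difference between the TP libraries. For TP+hucMSC-Exs against control, the mitochondrially encoded median moved from 0.08 to -0.73 on rescaling without enzymes and to -1.37 with median-of-ratios scaling, in all libraries or only the groups compared. The nuclear encoded median moved from 0.82 to 0.027, -0.60 and -0.60 in the same settings. The TP+hucMSC-Exs minus TP difference in the log2 ratio of the classes moved from -0.44 to -0.67 when class means of log2 values were used. Leaving out 1 library each, the ratio differences ran from -0.40 to -0.01 for TP minus control, -0.60 to -0.28 for TP+hucMSC-Exs minus TP and -0.84 to -0.46 for TP+hucMSC-Exs minus control. Log2 changes that turned sign were these. For TP against control, Mt-co2 was at -0.10 with median-of-ratios scaling, and Mt-atp8 at -0.068 on rescaling without enzymes and -0.73 with median-of-ratios scaling. Leaving out 1 library each, Mt-atp8 ran from -0.32 without TP replicate 2 to 2.33 without TP replicate 1, and Ndufa1 from -2.82 without TP replicate 1 to 0.64 without TP replicate 2. For TP+hucMSC-Exs against TP, from without TP replicate 1 to without TP replicate 2, Atp5mg ran from -2.51 to 0.24, Cox8a from -2.59 to 0.38, Mt-atp8 from -2.22 to 0.42 and Ndufa1 from 2.54 to -0.91. For TP+hucMSC-Exs against control, Cox6a1 was at -0.16 with median-of-ratios scaling. Mt-nd1 was at -0.34 on rescaling without enzymes and -0.98 with median-of-ratios scaling. It ran from -0.11 without control replicate 1 to 1.05 without control replicate 2, and Ndufa1 from 0.28 to -0.83. Beyond the fits named, the cause was not tested. With the replicate number as a block, limma called 0 of 91 members in each comparison, and 10, 22 and 35 of all genes. Same-numbered libraries deviated together at correlations of 0.28, 0.08 and 0.14, so the numbers were not taken to pair the rats. TPM gives no depth, so no limit from counting can be stated.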
